A study of Mus musculus with 12 samples.

Results

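The 37 genes described here encode the proteins that bring pyruvate into mitochondria, turn it into acetyl-CoA or oxaloacetate, run the tricarboxylic acid cycle and exchange its intermediates with amino acids and the cytosol. They were chosen by name and not by a rule on their values, but with earlier results of these data known. All 37 were found among the 12081 genes listed. RNA was measured in 12 libraries of primary hepatic stellate cells from mice, liver pericytes that store vitamin A and, once activated, turn into myofibroblasts that lay down collagen. The cells were isolated from Hk2 fl/fl liver by density gradient centrifugation, so every group, controls included, carried the floxed alleles of Hk2, which encodes the glycolytic enzyme hexokinase 2. There were 4 groups of 3 libraries. LAC cells received an adenovirus with Cre recombinase fused to eGFP (Ad-Cre) and later 10 mM lactate for 24 h. KO cells received Ad-Cre without lactate, and ACT cells received a virus with eGFP alone (Ad-GFP). All 3 of these groups were kept in culture for 6 days in low-glucose medium with fetal bovine serum. QS cells were freshly isolated and untreated, and stand for the quiescent state. Whether a group's libraries were made from different mice or cultures is not given in the labels, so the spread behind each p-value is that between libraries and may be technical. ACT and QS differ in culture and in virus at once, which cannot be told apart. KO and LAC differ from ACT in the presence of Cre as well as in the deletion of Hk2. These cannot be told apart either, and "deleted cells" below means cells given Ad-Cre.

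Pyruvate from glycolysis or from lactate enters mitochondria through a carrier made of Mpc1 and Mpc2. The pyruvate dehydrogenase complex oxidises it to acetyl-CoA, and is switched off when the kinases Pdk1 to Pdk4 phosphorylate it and on when phosphatases such as Pdp1 remove the phosphate. Pyruvate carboxylase (Pcx) instead makes oxaloacetate, which refills the cycle. The cycle oxidises acetyl-CoA and feeds electrons to the respiratory chain, while malic enzymes, aminotransferases and glutamate dehydrogenase move carbon in and out of it. Activated stellate cells are known to increase glycolysis and the use of glutamine.

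Levels are given in CPM, read counts normalised to library size by the authors, and a fold change is a difference of log2(CPM + 1) with its standard error. A gene was called at a limma adjusted p under 0.05, over all genes listed. Hk2 was at 18.7, 19.6 and 19.7 CPM in LAC, 10.7, 13.7 and 11.9 in KO, 181, 182 and 181 in ACT and 73.3, 66.7 and 73.5 in QS, so KO kept 6.68% of the ACT level. The estimated reads in listed genes ran from 8.67 to 11.05 megareads in LAC, 5.85 to 11.64 in KO, 11.41 to 14.002 in ACT and 4.35 to 10.14 in QS. The member with the fewest reads in any library was Mpc2, with an estimated 30.8 reads in QS replicate 2. The median coefficient of variation of the 37 members was 4.99% in LAC, 5.82% in KO, 3.34% in ACT and 6.35% in QS, where counting error alone gives 3.99%, 4.03%, 3.46% and 5.14%.

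Markers of other liver cells differed between the groups. The summed level of 22 macrophage markers, led by Lyz2 and Mpeg1, was 4391 to 4444 CPM in LAC, 568 to 587 in KO, 17236 to 17614 in ACT and 7954 to 8110.3 in QS, with 20 of the 22 called lower in KO cells than in ACT cells. The sum of 22 endothelial markers, led by Ptprb and Eng, was 5873 to 6104 CPM in LAC, 10729.5 to 11980.4 in KO, 964 to 992 in ACT and 20879 to 21445 in QS, and 21 of them were called higher in KO than in ACT. The sum of 23 hepatocyte markers was 378 to 395 CPM in LAC, 663 to 711 in KO, 475 to 491 in ACT and 3015 to 3057 in QS. In LAC 20 of these 23 averaged under 1 CPM and 8 were at 0 in all 3 libraries, so that Ass1 and Trf made up most of the remaining sum. Of 12 lymphocyte and neutrophil markers only S100a8 was listed, at 4.36 CPM or less on average in each group. The sum of 9 cholangiocyte and mesothelial markers was 95.4 to 97.1 CPM in LAC, 68.2 to 70.6 in KO, 202 to 217 in ACT and 61.3 to 65.8 in QS. This sum joins markers that moved apart, with 3 called higher and 3 lower in KO than in ACT. The mesothelial markers Wt1, Upk3b and Lrrn4 averaged 79.8, 58.4 and 44.7 CPM in ACT and 0.896, 0.872 and 0.776 in KO. The keratins Krt19, Krt18 and Krt8 averaged 7.07, 5.10 and 4.33 CPM in ACT and 23.2, 25.4 and 9.17 in KO. A sum over 9 myofibroblast markers, led by Tnc and Col1a1, was 11579 to 12159 CPM in LAC, 6820 to 7402 in KO, 16528 to 16599 in ACT and 435 to 471 in QS. In KO against ACT 8 of the 9 were called lower and 1, Tnc, higher. Tnc averaged 4506 CPM in LAC, 3531 in KO and 1480 in ACT, so the sum understates the fall of the others. A sum over 14 quiescent stellate markers was 1854 to 1928 CPM in LAC, 1619 to 1742 in KO, 1296 to 1330 in ACT and 6547 to 6695 in QS. All 13 mitochondrially encoded genes were called lower in ACT than in QS, with a median log2 fold change of -1.73. In RNA from a mixture, fewer cells of a type and less RNA per cell cannot be told apart. The part of these cells in the results below was not tested, and most liver cells use these enzymes.

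**Figure D1:**
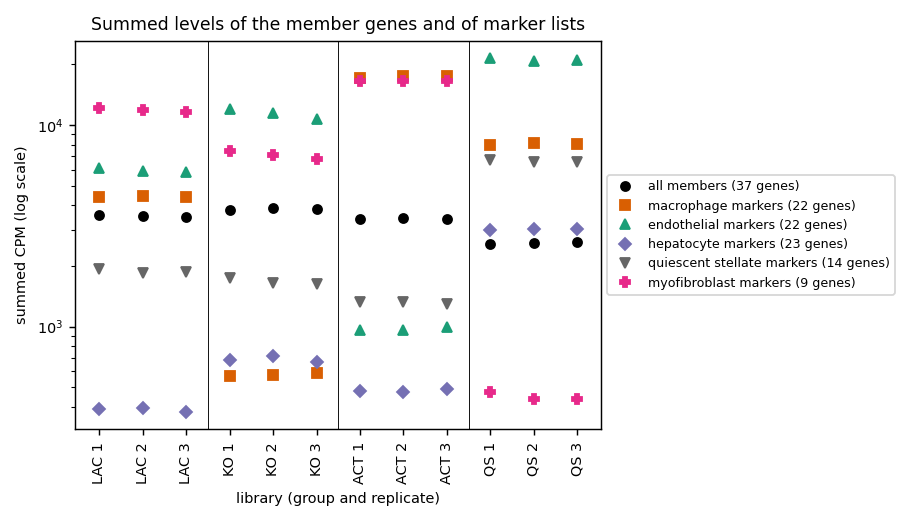
Summed CPM of the 37 member genes and of 5 marker lists (log axis) in each of the 12 libraries, ordered LAC, KO, ACT and QS, with 1 point per list and library. The member sum stays between 2579 and 3884 CPM, while the macrophage sum runs from 568 to 17614 and the endothelial sum from 964 to 21445.

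The members together took 3517 to 3563 CPM in LAC, 3789 to 3884 in KO, 3425 to 3448 in ACT and 2579 to 2627 in QS. These 4 ranges do not overlap. By group mean, 22 members were highest in KO, 10 in ACT, 3 in QS (Pdk1, Pdk2 and Me2) and 2 in LAC (Pdha1 and Me1). QS held the lowest mean of 26 members, ACT of 5, LAC of 4 and KO of 2.

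Activation in culture came with higher levels of most enzymes of the cycle and lower levels of 3 of the 4 pyruvate dehydrogenase kinases. In ACT against QS, 24 of 37 members rose, 6 fell (Pdk1, Pdk2, Pdk4, Me2, Suclg2 and Glud1) and 7 were not called. The background was 73.5% of genes called, with 38% higher and 35.5% lower, so the number called is near the background. The members' median log2 fold change was 0.31, against 0.03 over all genes. At least 2-fold and called were 6 members, against 31.2% of all genes. The libraries of ACT and QS did not overlap for 30 of 37 members, against 76.3% of all genes. Between these groups the endothelial marker sum averaged 973 CPM in ACT and 21101 in QS, and the hepatocyte marker sum 482 CPM in ACT and 3039 in QS.

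In Hk2-deleted cells Pdk4, Pcx and Got2 were higher and Idh1, Idh2 and Mdh1 lower than in activated control cells. In KO against ACT, 17 members rose, 5 fell (Pdk3, Idh1, Idh2, Sdha and Mdh1) and 15 were not called, where 62.4% of all genes were called, 36% higher and 26.3% lower. The share of members called was therefore near the background. The median log2 fold change was 0.13 for the members and 0.07 over all genes. Only Idh1, Pdk4, Pcx and Got2 were called and changed at least 2-fold, a class that held 18.9% of all genes. The KO and ACT libraries did not overlap for 24 members, against 69.2% of all genes. The macrophage marker sum averaged 577 CPM in KO and 17454 in ACT, and the endothelial marker sum 11384 CPM in KO and 973 in ACT. Of the 23 hepatocyte markers 21 were called higher and 2 lower in KO, with a median log2 fold change of 2.13, and 11 of the 13 mitochondrially encoded genes were called higher (median 0.48).

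Lactate given to Hk2-deleted cells came with small differences in these genes. In LAC against KO, 4 members rose (Pdk3, Me1, Idh1 and Mdh1), 12 fell and 21 were not called, where 41% of all genes were called, 20% higher and 21% lower. The share of members called was near the background. No member changed 2-fold, against 7.3% of all genes called and at least 2-fold. The members' median log2 fold change was -0.14 and that over all genes was -0.02. With the threshold set at an adjusted p of 0.01, 10 members were called, 3 higher and 7 lower. LAC and KO libraries did not overlap for 22 members, against 52.2% of all genes. The macrophage marker sum averaged 4419 CPM in LAC and 577 in KO, and the endothelial marker sum 5954 CPM in LAC and 11384 in KO. Of the 23 hepatocyte markers 21 were called lower and 2 higher in LAC, with a median log2 fold change of -3.05, and 8 of the 13 mitochondrially encoded genes were called lower (median -0.38).

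Lactate-treated deleted cells still differed from activated control cells in Pdk4, Pcx, Idh1, Idh2, Got2 and Me1. In LAC against ACT, 11 members rose, 9 fell and 17 were not called, where 49.5% of all genes were called, 27.8% higher and 21.7% lower, so the share of members called was again near the background. Quantile scaling made the share of higher members among those called 44.4%, against 55% with the deposited scaling. The median log2 fold change was 0.03 both for the members and over all genes, and 3 members were called and at least 2-fold, against 12.6% of all genes. Libraries of LAC and ACT did not overlap for 25 members, against 62.8% of all genes. The macrophage marker sum averaged 4419 CPM in LAC and 17454 in ACT, and the endothelial marker sum 5954 CPM in LAC and 973 in ACT. Of the 23 hepatocyte markers 14 were called lower and 1 higher in LAC (median log2 fold change -0.68), and 7 of the 13 mitochondrially encoded genes were called higher (median 0.25). The 4 comparisons share libraries, so their values are set side by side and are not independent of each other.

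**Figure D2:**
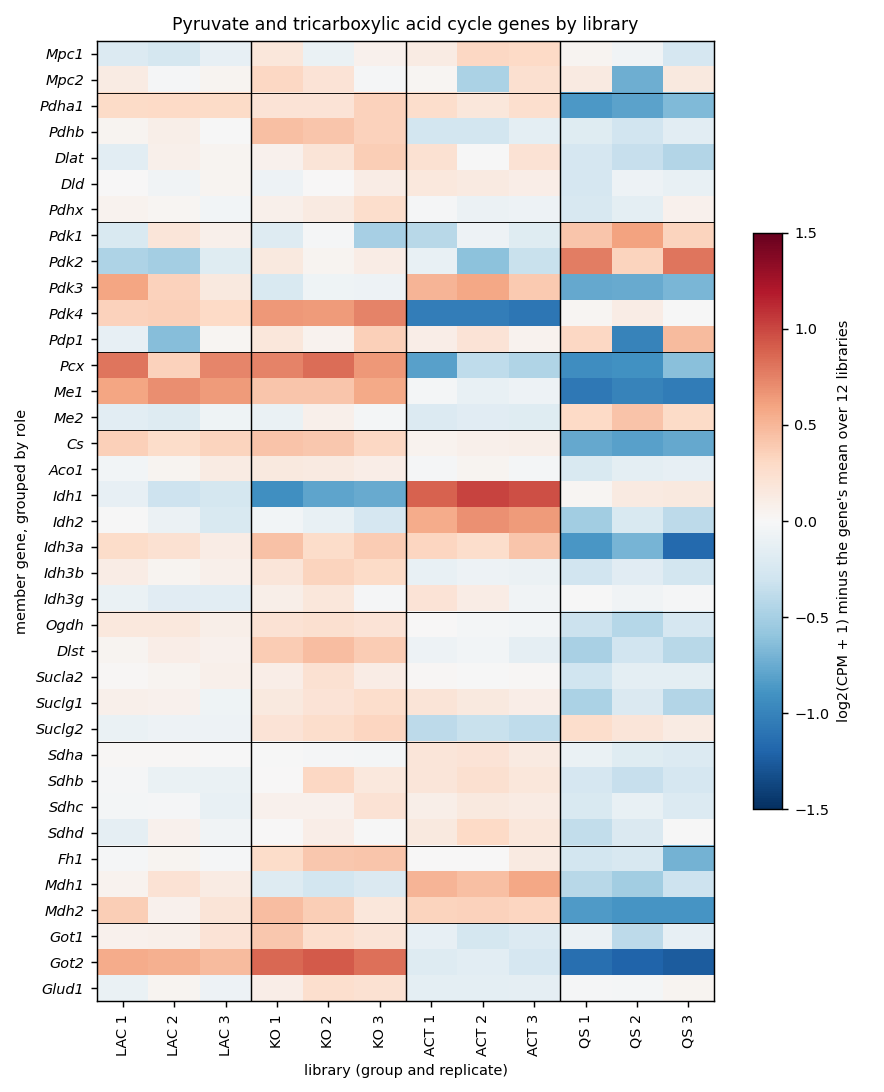
Level of each of the 37 member genes (rows, grouped by role) in each library (columns, in the order LAC, KO, ACT, QS) as log2(CPM + 1) minus the gene's own mean over the 12 libraries. Blue fills most of the QS columns, since 26 members had their lowest mean there, Pdk4 is lowest in ACT, and Idh1 and Idh2 are highest in ACT.

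**Figure D3:**
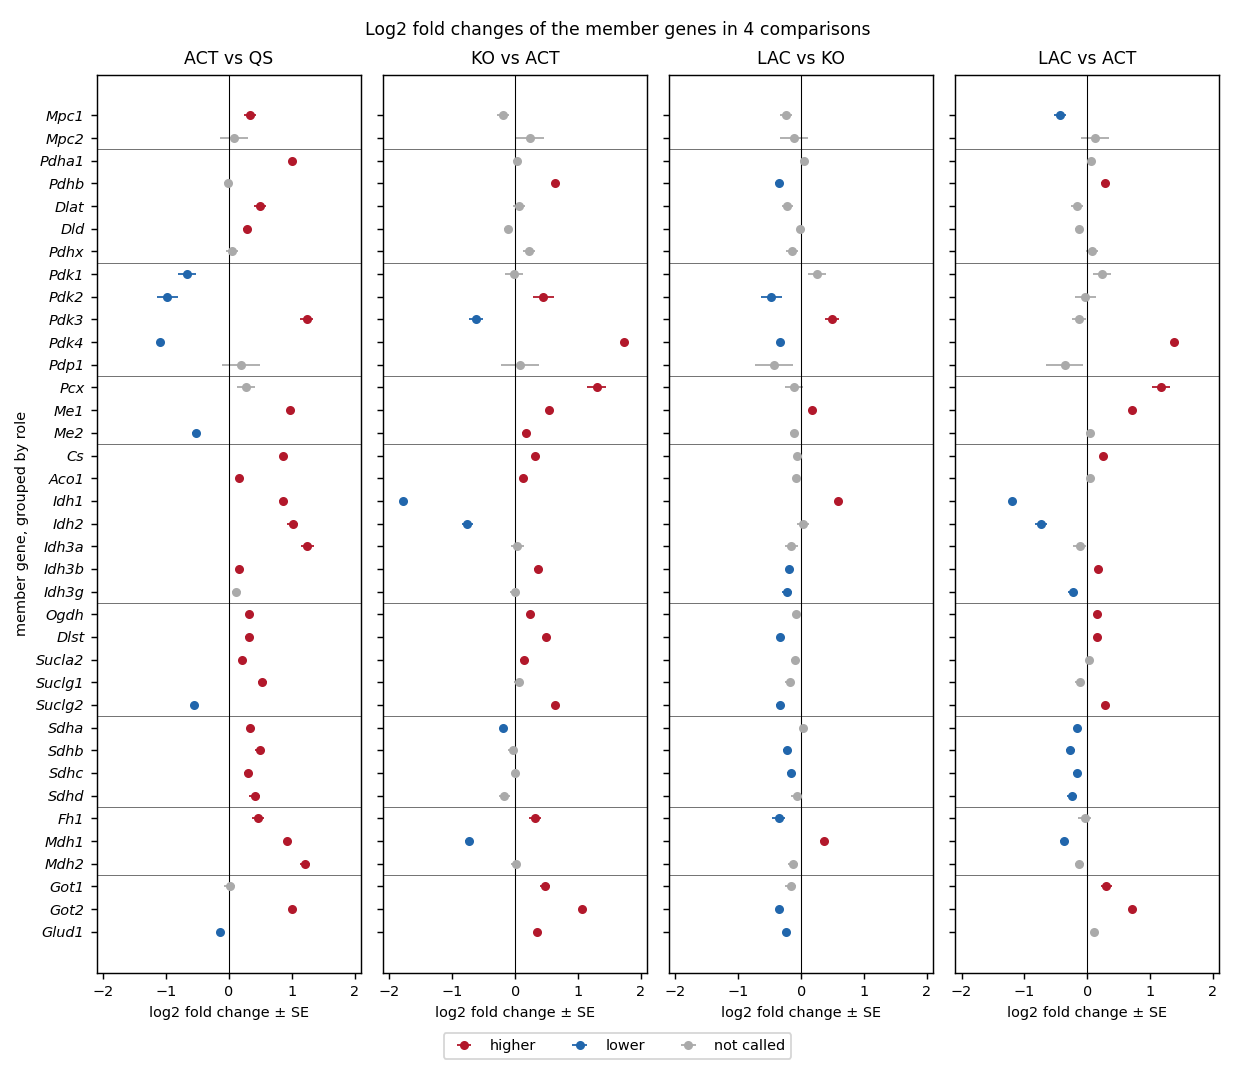
Log2 fold change of each member (horizontal axis, point) with its standard error (bar) in 4 comparisons, with members called higher in red, called lower in blue and not called in grey. Idh1 lies at -1.78 and Pdk4 at 1.73 in KO vs ACT, and no point lies beyond 1 in LAC vs KO.

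The promoters of the pair of members that rose most and of the pair that fell most in KO against ACT, both isocitrate dehydrogenases, are shown. They were picked on that comparison alone, and these 4 genes also had the largest changes between LAC and ACT. Each is the RefSeq window on GRCm38.p6 from 250 bases before to 50 after an annotated start, read on the gene's own strand. Pdk4 lies at chr6:5496229-5496528 (minus strand), Pcx at chr19:4510222-4510521 (plus strand), Idh1 at chr1:65186430-65186729 (minus strand) and Idh2 at chr7:80115301-80115600 (minus strand). Capitals mark ACGTG, the core of the hypoxia response element, on either strand, which is also the core of the E-box CACGTG, the palindrome at the start of the Pcx window.
Pdk4: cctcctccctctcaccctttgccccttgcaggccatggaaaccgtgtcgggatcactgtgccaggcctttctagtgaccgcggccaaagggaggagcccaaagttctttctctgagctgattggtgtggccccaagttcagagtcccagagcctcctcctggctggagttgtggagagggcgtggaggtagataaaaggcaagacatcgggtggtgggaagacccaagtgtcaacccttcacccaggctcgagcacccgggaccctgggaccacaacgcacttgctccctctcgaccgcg
Pcx: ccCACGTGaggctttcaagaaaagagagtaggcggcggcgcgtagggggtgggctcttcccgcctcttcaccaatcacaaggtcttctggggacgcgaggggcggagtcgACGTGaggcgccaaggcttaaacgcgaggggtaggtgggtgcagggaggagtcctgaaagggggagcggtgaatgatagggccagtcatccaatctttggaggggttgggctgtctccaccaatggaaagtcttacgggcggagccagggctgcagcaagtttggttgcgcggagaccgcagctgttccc
Idh1: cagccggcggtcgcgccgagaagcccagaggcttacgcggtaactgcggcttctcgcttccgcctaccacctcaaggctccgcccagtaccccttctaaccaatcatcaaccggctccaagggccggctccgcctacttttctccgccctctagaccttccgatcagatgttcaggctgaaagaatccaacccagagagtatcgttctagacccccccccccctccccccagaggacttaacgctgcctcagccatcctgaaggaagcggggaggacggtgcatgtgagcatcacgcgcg
Idh2: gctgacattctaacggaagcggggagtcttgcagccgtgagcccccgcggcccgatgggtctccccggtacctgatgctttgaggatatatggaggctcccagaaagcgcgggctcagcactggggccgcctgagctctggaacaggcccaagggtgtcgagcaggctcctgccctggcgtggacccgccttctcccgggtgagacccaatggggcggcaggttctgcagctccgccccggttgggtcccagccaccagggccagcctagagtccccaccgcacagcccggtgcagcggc
Windows were listed for 33 of the 37 members, and for each the window nearest the gene's annotated start was taken. The set of all windows can hold several per gene and was not limited to the genes listed. The shares of members and of all windows below therefore come from unlike sets. ACGTG was found in 8 of the 33 (24.2%), namely Idh3g, Mdh1, Ogdh, Pcx, Pdhb, Pdk2, Pdk3 and Sdha, against 19.6% of all 32851 windows. AAGGTCA, the half-site of the estrogen-related receptors, was in 2 (Got1 and Sdhd) against 4.72% of all windows, GCATGCG, the core of the NRF1 site, in 3 (Glud1, Pdhb and Sdhb) against 3.58%, and GTAAACA, a FOXO site, in none of the 33 against 3.65% (both strands searched). In the sequences shown, only Pcx holds any of these letters. The ratio of observed to expected CpG was 0.44 for Pdk4, 0.75 for Pcx, 0.84 for Idh1 and 0.57 for Idh2. It was at least 0.6 in 28 of 33 member windows (84.8%), against 35.8% of all windows, so the Pdk4 and Idh2 windows are among the 5 members below that value.

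Of the mitochondrial pyruvate carrier, only Mpc1 had called differences. Mpc1 was at 28.2, 26.9 and 29.7 CPM in LAC, 36.6, 30.4 and 34.2 in KO, 35.4, 40.5 and 40.3 in ACT and 33.4, 31.3 and 27.2 in QS. It rose in ACT against QS (log2 fold change 0.33 ± 0.095 SE, limma adjusted p = 0.0061) and was lower in LAC than in ACT (-0.44, adjusted p = 0.00144), where all 3 LAC libraries lie below all 3 ACT libraries. Its partner Mpc2 was at 14.2, 12.7 and 13.3 CPM in LAC, 16.3, 14.98 and 12.8 in KO, 13.2, 8.96 and 15.4 in ACT and 14.3, 7.39 and 14.4 in QS. All 4 groups overlap, the fold change of Mpc2 had a standard error of 0.23, and none of its 4 comparisons was called.

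Among the subunits of the pyruvate dehydrogenase complex, activation was led by Pdha1, the catalytic alpha subunit that the kinases phosphorylate. Pdha1 was at 208 CPM in each of the LAC libraries, 196, 195 and 217 in KO, 204, 192 and 202 in ACT and 93.1, 96.5 and 107 in QS. All 9 cultured libraries lie above the QS libraries, KO overlaps LAC and ACT, LAC lies just above ACT without a call (0.06), and the rise in ACT against QS was 1.00 ± 0.055 (adjusted p = 5.84e-10). Dlat, the acetyl-transferring core, and Dld, the dehydrogenase shared with the 2-oxoglutarate complex, also rose in ACT against QS, by 0.49 and 0.28. Pdhb, the catalytic beta subunit, was instead level between ACT (59.6 ± 3.13 CPM) and QS (60.6 ± 2.82, SD, n = 3 each). It was the only subunit called in KO against ACT, at 92.9 ± 3.65 CPM in KO (0.63 ± 0.056, adjusted p = 2.31e-07), and in LAC against KO, at 72.2 ± 2.21 CPM in LAC (-0.36 ± 0.056, adjusted p = 0.000161). Pdhx, which anchors Dld to the core, averaged 20.3 CPM in LAC, 22.5 in KO, 19.2 in ACT and 18.7 in QS and was called in none of the comparisons.

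The kinases that switch the complex off did not move together. Pdk4, the kinase known for its induction in fasting and by fatty acids in liver and muscle, was at 106, 106 and 102 CPM in LAC, 131, 130.1 and 139 in KO, 39.8, 40.0 and 38.7 in ACT and 84.6, 89.8 and 82.7 in QS. No groups overlap, and the order was KO, LAC, QS and ACT. Pdk4 fell in ACT against QS (-1.10 ± 0.048, adjusted p = 4.83e-11), rose in KO against ACT (1.73, adjusted p = 5.88e-13), fell in LAC against KO (-0.34, adjusted p = 5.64e-05) and was higher in LAC than in ACT (1.39, adjusted p = 1.66e-11). Pdk3 had another order of groups. It was at 32.3, 26.9 and 23.5 CPM in LAC, 17.8, 20.1 and 19.9 in KO, 30.3, 32.0 and 28.0 in ACT and 12, 12 and 12.7 in QS. LAC overlaps ACT for Pdk3, and both lie above KO and QS. Its log2 fold change was 1.23 ± 0.11 in ACT against QS (adjusted p = 1.64e-07), -0.62 in KO against ACT (adjusted p = 0.000238), 0.49 in LAC against KO (adjusted p = 0.00305) and -0.13 in LAC against ACT, which was not called (adjusted p = 0.354).

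Pdk1, a kinase induced by hypoxia, and Pdk2, the broadly expressed kinase, were highest in QS. Pdk1 was at 22.8, 30.7 and 28.5 CPM in LAC, 23.3, 26.5 and 18.7 in KO, 19.9, 25.4 and 23.7 in ACT and 36.1, 41.4 and 34.2 in QS. It fell in ACT against QS (-0.67 ± 0.14, adjusted p = 0.000621) and was called in no other comparison. Pdk2 was at 6.38, 6.12 and 7.94 CPM in LAC, 10.2, 9.45 and 9.92 in KO, 8.42, 5.63 and 7.07 in ACT and 16.2, 11.8 and 16.7 in QS. It fell in ACT against QS (-0.98 ± 0.17, adjusted p = 0.000108), rose in KO against ACT (0.45, adjusted p = 0.0318) and fell in LAC against KO (-0.48, adjusted p = 0.0338). The KO vs ACT call of Pdk2 was lost without ACT replicate 2 or 3 or KO replicate 1 or 3 (adjusted p 0.0621 to 0.144), and the LAC vs KO call without any KO library or without LAC replicate 1 or 2 (0.0575 to 0.109). Pdp1, a phosphatase that reactivates the complex, was at 17.7, 12.03 and 19.8 CPM in LAC, 21.9, 20.2 and 25.1 in KO, 20.8, 22.4 and 20.1 in ACT and 24.3, 9.12 and 27.4 in QS. QS replicate 2 stands apart with an estimated 38.0 reads of Pdp1, and no comparison of this gene was called.

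**Figure D4:**
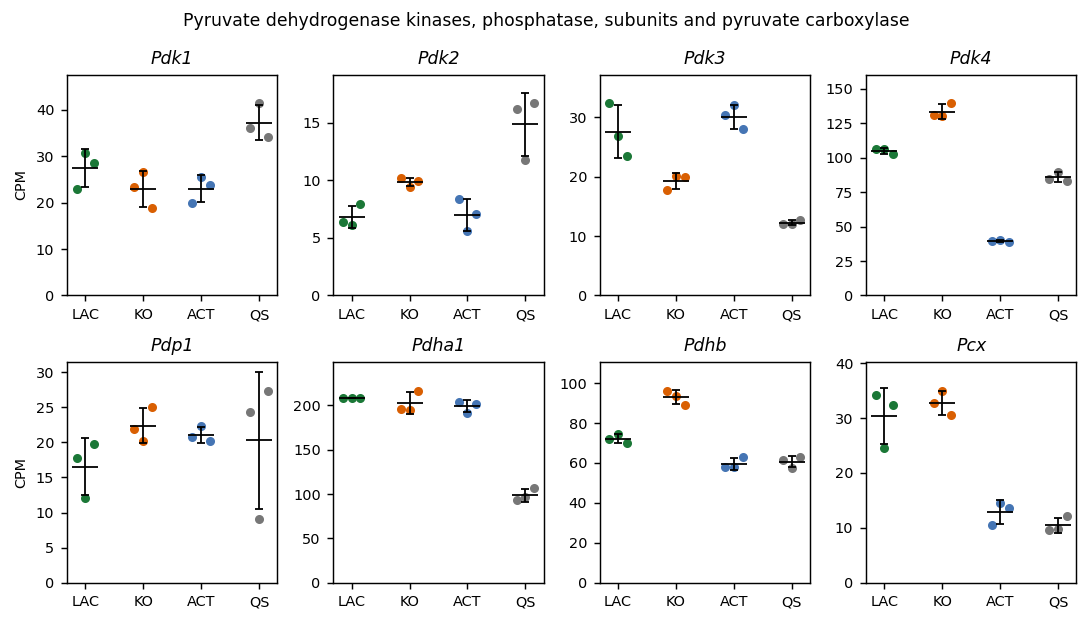
CPM of the 4 pyruvate dehydrogenase kinases, the phosphatase Pdp1, the subunits Pdha1 and Pdhb and pyruvate carboxylase Pcx in each library (points) by group, with the group mean (long line) and SD (bars, n = 3). Pdk4 averages 105 CPM in LAC, 133 in KO, 39.5 in ACT and 85.7 in QS, Pdk1 and Pdk2 are highest in QS, and Pcx lies above 24 CPM in each LAC and KO library and below 15 in each ACT and QS library.

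Set per kilobase of the median length of each gene's coding transcripts, the 4 kinases summed to 51.4 ± 1.75 CPM per kb in LAC, 56.2 ± 1.252 in KO, 33.1 ± 1.01 in ACT and 44.2 ± 0.427 in QS (SD, n = 3 each). Pdk4 made up 58.5% of that sum in LAC, 68.1% in KO, 34.2% in ACT and 55.6% in QS. Pdk3 made up 25.3% in LAC, 16.2% in KO, 42.9% in ACT and 13.1% in QS. Pdk3 was therefore the largest share in ACT and Pdk4 in the 3 other groups. With the exon union as the length Pdk3 also led in ACT, at 41.7% against 39.9% for Pdk4, a difference that rests on the lengths chosen, since the transcripts in use are not known from these data.

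Pyruvate carboxylase, a mitochondrial enzyme also needed for glucose synthesis in liver, was higher in the deleted cells. Pcx was at 34.1, 24.5 and 32.4 CPM in LAC, 32.8, 35.0 and 30.6 in KO, 10.5, 14.5 and 13.7 in ACT and 9.61, 9.76 and 12.1 in QS. LAC and KO overlap, ACT and QS overlap, and the 6 libraries with Ad-Cre all lie above the other 6. The log2 fold change was 1.29 ± 0.14 in KO against ACT (adjusted p = 2.80e-06) and 1.17 in LAC against ACT (adjusted p = 1.15e-05), and the differences in ACT against QS (0.27) and LAC against KO (-0.12) were not called. Pck1, which takes the oxaloacetate on to glucose in hepatocytes, had another order of groups than Pcx. It averaged 0.0602 CPM in LAC, 12.5 in KO and 63.0 in QS, and was at no more than 0.212 CPM in any ACT library. The ratio of Pcx to Pdha1 within a library, the 2 entries of pyruvate into the cycle, averaged 0.146 in LAC, 0.163 in KO, 0.0650 in ACT and 0.106 in QS. In KO it was 2.52 times that in ACT, and it did not overlap between them (two-sided exact permutation p = 0.10, the smallest that 3 against 3 libraries allow). LAC and KO overlapped in this ratio (exact permutation p = 0.50). Over all 16 tests of ratios, 4 ratios in 4 comparisons, every other p was 0.10 and adjusted to 0.107 by Benjamini-Hochberg.

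The malic enzymes, which turn malate back into pyruvate, went opposite ways in activation. Me1, the cytosolic enzyme that yields NADPH, was at 163, 174 and 167 CPM in LAC, 144, 143 and 159.9 in KO, 105, 99.1 and 102 in ACT and 50.5, 53.3 and 51.5 in QS. The 4 groups do not overlap and stand in the order LAC, KO, ACT and QS, highest first. Me1 rose in ACT against QS by 0.97 ± 0.051 (adjusted p = 4.24e-10), in KO against ACT by 0.54 (adjusted p = 4.88e-07), in LAC against KO by 0.17 (adjusted p = 0.0143) and in LAC against ACT by 0.71 (adjusted p = 4.02e-08). The LAC vs KO call of Me1 was lost without KO replicate 1 or 2 or LAC replicate 2 (adjusted p 0.0560 to 0.0646). Mitochondrial Me2 averaged 58.9 ± 2.95 CPM in LAC, 64.0 ± 3.88 in KO, 56.9 ± 0.680 in ACT and 82.4 ± 4.71 in QS, so it fell in ACT against QS (-0.52, adjusted p = 2.42e-06). Its rise in KO against ACT (0.17, adjusted p = 0.0289) was lost under quantile scaling and without KO replicate 2 or any ACT library (adjusted p 0.0548 to 0.123). The ratio of Me1 to Me2 averaged 2.86 in LAC, 2.33 in KO, 1.80 in ACT and 0.629 in QS, with no overlap in any of the 4 comparisons (two-sided exact permutation p = 0.10 each).

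Citrate synthase (Cs), which joins acetyl-CoA to oxaloacetate, was at 328, 308 and 322 CPM in LAC, 345, 339 and 318 in KO, 265, 269 and 272 in ACT and 150.0, 145 and 149 in QS. LAC and KO overlap and both lie above ACT, which lies above QS. Cs rose by 0.86 ± 0.038 in ACT against QS (adjusted p = 6.27e-11), by 0.31 in KO against ACT (adjusted p = 7.00e-06) and by 0.25 in LAC against ACT (adjusted p = 8.97e-05). Aco1, the cytosolic aconitase that also acts as iron regulatory protein, differed by 0.16 or less on the log2 scale in every comparison. Its call in ACT against QS was lost with marker and mitochondrially encoded genes left out of the library total (adjusted p = 0.0626), and that in KO against ACT (0.13, adjusted p = 0.0354) under quantile scaling (adjusted p = 0.181), with moderation without a trend (0.0557) and without ACT replicate 1 or 3 or KO replicate 1 or 2 (0.0759 to 0.103).

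Both NADP-dependent isocitrate dehydrogenases rose with activation and were lower in the deleted cells. Idh1, the NADP-dependent enzyme of cytosol and peroxisomes, was at 122, 107 and 111 CPM in LAC, 70.1, 76.4 and 78.5 in KO, 248, 270.4 and 261 in ACT and 136, 146 and 148 in QS. No groups overlap, and Idh1 had the greatest absolute fold change of the 37 members in KO against ACT (-1.78 ± 0.059, adjusted p = 4.68e-12) and in LAC against KO (0.59, adjusted p = 2.63e-06). It rose in ACT against QS (0.85, adjusted p = 9.66e-09) and was lower in LAC than in ACT (-1.19, adjusted p = 8.39e-10). Its order of groups, ACT, QS, LAC and KO, was also the order of the macrophage marker sum. That sum averaged 4419 CPM in LAC, 577 in KO, 17454 in ACT and 8030.2 in QS. Its 22 markers were mixed in ACT against QS, with 11 called higher and 7 lower. Lyz2 alone averaged 9350 CPM in ACT and 513 in QS, and Mrc1 made up 387 CPM of the sum in KO. The part of macrophages in the level of Idh1 was not tested. Idh2, the NADP-dependent enzyme of mitochondria, was at 40.8, 38.5 and 34.7 CPM in LAC, 39.8, 37.8 and 34.1 in KO, 60.7, 66.5 and 64.5 in ACT and 28.2, 34.7 and 30.9 in QS. ACT lies above the other 3 groups, of which KO overlaps LAC and QS. Idh2 rose in ACT against QS (1.01 ± 0.088, adjusted p = 1.21e-07) and fell in KO against ACT (-0.76, adjusted p = 3.84e-06), and the difference between LAC and KO was 0.03 and not called. The ratio of Idh2 to Idh1 averaged 0.335 in LAC, 0.499 in KO, 0.246 in ACT and 0.218 in QS and did not overlap in any of the 4 comparisons (two-sided exact permutation p = 0.10 each).

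The NAD-dependent isocitrate dehydrogenase of the cycle is built from Idh3a, Idh3b and Idh3g. Idh3a, the catalytic subunit, had the greatest absolute fold change of the members in ACT against QS. It was at 41.2, 39.9 and 36.7 CPM in LAC, 46.0, 41.2 and 44.5 in KO, 42.4, 40.7 and 45.4 in ACT and 18.0, 20.5 and 14.6 in QS. The cultured groups overlap and lie above QS (ACT against QS 1.24 ± 0.10, adjusted p = 7.73e-08), and no other comparison of Idh3a was called. Idh3b was at 95.2 ± 2.18 CPM in LAC, 109 ± 5.73 in KO, 84.7 ± 0.965 in ACT and 76.1 ± 3.43 in QS, with no overlap between groups. It rose in KO against ACT (0.36, adjusted p = 2.56e-05), and its call in ACT against QS (0.15) was lost with marker and mitochondrially encoded genes left out of the library total (adjusted p = 0.0921). The call of Idh3b in LAC against ACT (0.17, adjusted p = 0.0128) was lost under quantile scaling (adjusted p = 0.0788) and without LAC replicate 1 (0.0502). Idh3g averaged 35.2 CPM in LAC, 41.4 in KO, 41.7 in ACT and 38.3 in QS. Idh3g was called lower in LAC than in KO and ACT (-0.22 and -0.23), and each call was lost when any of 4 libraries was left out, LAC replicates 2 and 3 with KO replicates 1 and 2 or with ACT replicates 1 and 2 (adjusted p 0.0517 to 0.108).

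Ogdh and Dlst, the first enzymes of the 2-oxoglutarate dehydrogenase complex, shared 1 order of groups. Ogdh was at 249.7, 250.03 and 237 CPM in LAC, 259.9, 265 and 259 in KO, 225, 219 and 218 in ACT and 178, 167 and 188 in QS. Dlst averaged 126 ± 2.15 CPM in LAC, 160.0 ± 5.95 in KO, 114 ± 3.71 in ACT and 91.5 ± 6.58 in QS. For both, KO lay above LAC, LAC above ACT and ACT above QS without overlap. Each rose in ACT against QS by 0.31 and in KO against ACT, Ogdh by 0.24 (adjusted p = 0.000209) and Dlst by 0.49 (adjusted p = 1.64e-06), and Dlst fell in LAC against KO (-0.34, adjusted p = 0.000144). Both were called higher in LAC than in ACT, by 0.15 each, and both calls were lost under quantile scaling (adjusted p 0.111 for Ogdh and 0.155 for Dlst). The LAC vs ACT call of Dlst was also lost without a trend in the moderation and without ACT replicate 1 or 3 or LAC replicate 2 or 3 (adjusted p 0.0548 to 0.108).

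Succinyl-CoA ligase pairs the alpha subunit Suclg1 with a beta subunit that makes ATP (Sucla2) or GTP (Suclg2). Suclg1 averaged 56.1 ± 3.17 CPM in LAC, 63.7 ± 2.45 in KO, 61.3 ± 2.17 in ACT and 42.3 ± 4.23 in QS and rose in ACT against QS (0.53, adjusted p = 1.31e-05). Suclg2 averaged 61.2 ± 0.652 CPM in LAC, 78.1 ± 3.14 in KO, 50.1 ± 1.06 in ACT and 74.1 ± 3.54 in QS. It fell in ACT against QS (-0.56, adjusted p = 2.34e-07), rose in KO against ACT (0.63, adjusted p = 9.67e-08) and fell in LAC against KO (-0.35, adjusted p = 0.00011). Sucla2 averaged 75.2 CPM in LAC, 81.0 in KO, 73.4 in ACT and 63.6 in QS and rose in ACT against QS (0.21, adjusted p = 0.00428). The call of Sucla2 in KO against ACT (0.14, adjusted p = 0.0454) was lost under quantile scaling (adjusted p = 0.224), without a trend in the moderation (0.0646) and without KO replicate 2 or any ACT library (0.0799 to 0.182). The ratio of Suclg2 to Sucla2 averaged 0.814 in LAC, 0.966 in KO, 0.682 in ACT and 1.17 in QS, with no overlap in any of the 4 comparisons (two-sided exact permutation p = 0.10 each). ACT, lowest in this ratio, was also lowest in the endothelial marker sum and QS was highest in both, and the part of endothelial cells in it was not tested.

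Succinate dehydrogenase, which is also a complex of the respiratory chain, is built from 4 subunits. All 4 rose in ACT against QS, by 0.33 for the flavoprotein Sdha, 0.48 for the iron-sulfur protein Sdhb, and 0.29 and 0.40 for the membrane anchors Sdhc and Sdhd (adjusted p 1.48e-06 to 0.000585). Sdha was at 203, 204 and 200.5 CPM in LAC, 201, 199 and 197 in KO, 228, 231 and 221 in ACT and 188, 178 and 174 in QS. LAC and KO overlap for Sdha, and both lie below ACT and above QS. It was the only subunit called in KO against ACT (-0.19 ± 0.037, adjusted p = 0.000494). All 4 were lower in LAC than in ACT, with log2 fold changes of -0.16 for Sdha, -0.27 for Sdhb, -0.17 for Sdhc and -0.25 for Sdhd and adjusted p from 0.00206 to 0.0258. The LAC vs ACT call of Sdhc was lost without ACT replicate 2 or 3 or LAC replicate 3 (adjusted p 0.0569 to 0.0894), and that of Sdhd without ACT replicate 2 or LAC replicate 1 or 3 (0.0636 to 0.106). Sdhb and Sdhc were called lower in LAC than in KO (-0.23 and -0.17), calls that were lost without KO replicate 2 or LAC replicate 2 or 3 for Sdhb (0.0540 to 0.0801) and without KO replicate 3 or LAC replicate 3 for Sdhc (0.103 to 0.107).

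Fumarase, which makes malate, is encoded by Fh1. It was at 54.1, 56.5 and 53.9 CPM in LAC, 66.3, 72.5 and 73.1 in KO, 54.8, 55.1 and 60.0 in ACT and 44.9, 46.2 and 33.0 in QS. KO lies above the other groups, LAC and ACT overlap, and QS is lowest. Fh1 rose in ACT against QS (0.46 ± 0.10, adjusted p = 0.00102), rose in KO against ACT (0.31, adjusted p = 0.0155, lost without ACT replicate 1 at 0.0513) and fell in LAC against KO (-0.36, adjusted p = 0.012). The malate dehydrogenases parted in the deleted cells. Mdh1, the cytosolic enzyme of the malate-aspartate shuttle, was at 91.1, 103 and 95.9 CPM in LAC, 76.7, 72.6 and 75.2 in KO, 125, 120.5 and 131 in ACT and 65.8, 60.7 and 70.4 in QS. No groups overlap, with ACT highest and QS lowest. Mdh1 rose in ACT against QS (0.93 ± 0.061, adjusted p = 5.60e-09), fell in KO against ACT (-0.74, adjusted p = 1.16e-07), rose in LAC against KO (0.36, adjusted p = 0.000337) and was lower in LAC than in ACT (-0.38, adjusted p = 0.000147). Mdh2, the enzyme of the cycle, was at 158, 128 and 141 CPM in LAC, 170.1, 159 and 139 in KO, 155, 156 and 154 in ACT and 67.8, 65.8 and 66.0 in QS. Its cultured groups overlap and lie above QS (ACT against QS 1.21 ± 0.076, adjusted p = 3.14e-09), and no other comparison of Mdh2 was called.

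**Figure D5:**
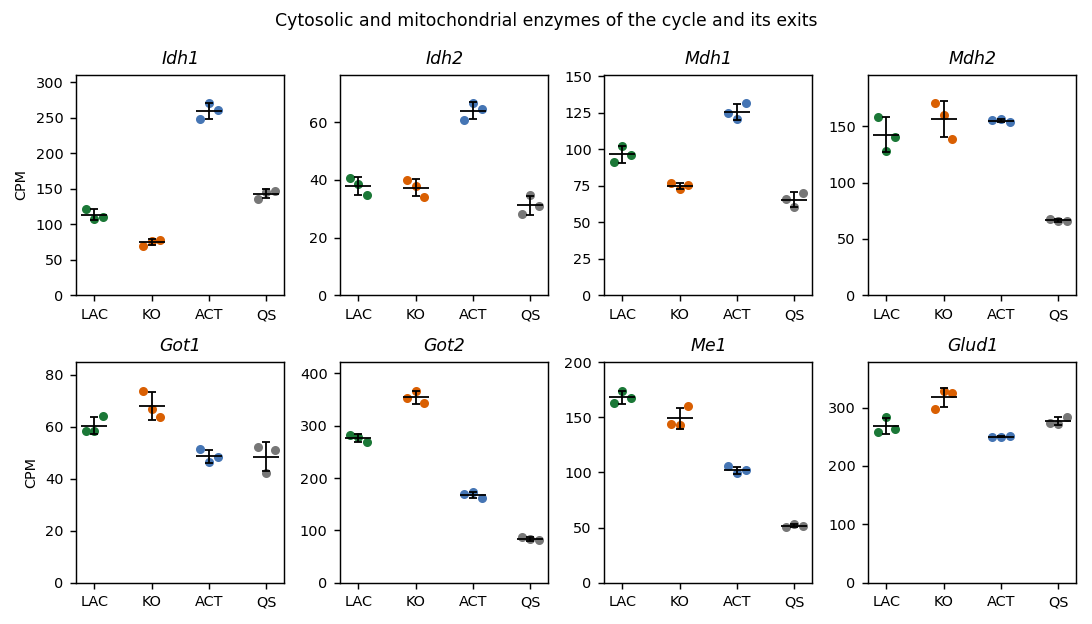
CPM of cytosolic (Idh1, Mdh1, Got1, Me1) and mitochondrial (Idh2, Mdh2, Got2, Glud1) enzymes in each library (points) by group, with the group mean (long line) and SD (bars, n = 3). Idh1 averages 113 CPM in LAC, 75.0 in KO, 259.8 in ACT and 143 in QS, and Got2 averages 277 in LAC, 354 in KO, 168 in ACT and 83.9 in QS.

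Among the enzymes that link the cycle to amino acids, Got2, the mitochondrial aspartate aminotransferase, had the widest range. It was at 283, 279 and 268 CPM in LAC, 353, 367 and 343 in KO, 169, 173 and 162 in ACT and 87.5, 83.3 and 80.8 in QS. No groups overlap. Got2 rose in ACT against QS (0.99 ± 0.043, adjusted p = 4.43e-11), rose in KO against ACT (1.07, adjusted p = 3.55e-11), fell in LAC against KO (-0.35, adjusted p = 1.61e-05) and was higher in LAC than in ACT (0.72, adjusted p = 5.94e-09). Its cytosolic partner Got1 was at 58.4, 58.6 and 64.2 CPM in LAC, 73.9, 66.7 and 63.6 in KO, 51.3, 46.4 and 48.4 in ACT and 52.1, 42.1 and 51.2 in QS. LAC and KO overlap and lie above ACT and QS, which also overlap. Got1 rose in KO against ACT (0.47 ± 0.084, adjusted p = 0.000226) and was higher in LAC than in ACT (0.30, adjusted p = 0.00804). Glud1, glutamate dehydrogenase, had the highest CPM of the 37 members averaged over all 12 libraries, although by group it led in QS alone. It was at 258, 284 and 263 CPM in LAC, 298, 329 and 325 in KO, 249, 249.5 and 252 in ACT and 273, 271 and 285 in QS. KO is highest and ACT lowest without overlap with the other groups, while LAC and QS overlap. Glud1 rose in KO against ACT (0.34 ± 0.045, adjusted p = 1.58e-05) and fell in LAC against KO (-0.24, adjusted p = 0.000757). Its fall in ACT against QS (-0.14, adjusted p = 0.0111) was lost under equal totals, equal medians and quantile scaling (adjusted p 0.170 to 0.264).

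Neighbouring genes of the same pathways were counted from lists fixed by function, also with earlier results of these data known. Of the genes for entry of pyruvate, lipoylation and lactate dehydrogenase, 10 of 11 were listed, and 4 rose and 1 fell in ACT against QS, 1 rose and 3 fell in KO against ACT, 1 rose and 1 fell in LAC against KO, and 1 rose and 3 fell in LAC against ACT. The shares called, 40% in LAC against ACT, 20% in LAC against KO, 40% in KO against ACT and 50% in ACT against QS, were below the 49.5%, 41%, 62.4% and 73.5% of all genes. Ldha, the lactate dehydrogenase subunit that dominates in muscle, was at 754 ± 12.9 CPM in LAC, 588 ± 7.09 in KO, 641 ± 9.27 in ACT and 278 ± 10.1 in QS. It rose in ACT against QS (1.20, adjusted p = 2.07e-13) and in LAC against KO (0.36, adjusted p = 7.51e-07). Also called in ACT against QS were Lipt1, a lipoyl transferase (1.17), and Bola3, which helps assemble iron-sulfur clusters (0.60). Lipt1 averaged 4.73 CPM in ACT and 1.60 in QS, so the pseudocount of 1 CPM weighs on its fold change. In KO against ACT, Pdpr, the regulatory subunit of pyruvate dehydrogenase phosphatase, fell (-0.67, adjusted p = 0.000159), as did Ldhb (-0.21), while Iba57, another iron-sulfur factor, rose (0.39). Pdp2, another phosphatase, fell in LAC against KO (-0.36, adjusted p = 0.0337), and Lipt2 (-0.57), Pdpr (-0.39) and Ldhb (-0.38) were lower in LAC than in ACT. Lipt2 averaged 2.28 CPM in LAC and 3.83 in ACT, so the pseudocount weighs on its fold change too.

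Of 12 accessory and assembly genes of the cycle, 6 rose and 2 fell in ACT against QS, 4 rose and 1 fell in KO against ACT, 1 rose and 1 fell in LAC against KO, and 3 rose and 1 fell in LAC against ACT. The shares called, 33.3% in LAC against ACT, 16.7% in LAC against KO, 41.7% in KO against ACT and 66.7% in ACT against QS, were also below those of all genes (49.5%, 41%, 62.4% and 73.5%). Ogdhl, a relative of Ogdh, averaged 23.2 ± 2.504 CPM in LAC, 15.8 ± 2.39 in KO, 12.5 ± 1.26 in ACT and 1.65 ± 0.787 in QS, a rise of 2.39 in ACT against QS (adjusted p = 1.01e-07). Fahd1, an oxaloacetate decarboxylase, and Dhtkd1, a dehydrogenase of lysine breakdown, fell in ACT against QS (-0.86 and -0.73). Dhtkd1 averaged 1.68 CPM in ACT and 3.38 in QS. At such levels its fold change and that of Ogdhl depend on the pseudocount. D2hgdh, which oxidises D-2-hydroxyglutarate to 2-oxoglutarate, fell in KO against ACT (-1.001, adjusted p = 2.78e-05). D2hgdh averaged 9.52 ± 1.76 CPM in LAC, 6.31 ± 0.195 in KO, 13.7 ± 1.42 in ACT and 11.3 ± 0.930 in QS, so its group means stood in the same order as those of Idh1, although LAC and QS overlap.

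Of 25 genes that fill or drain the cycle, 20 were listed, and 10 rose and 5 fell in ACT against QS, 5 rose and 8 fell in KO against ACT, 4 rose and 5 fell in LAC against KO, and 1 rose and 10 fell in LAC against ACT. The shares called, 55% in LAC against ACT, 45% in LAC against KO, 65% in KO against ACT and 75% in ACT against QS, were near those of all genes (49.5%, 41%, 62.4% and 73.5%). Pck1, cytosolic phosphoenolpyruvate carboxykinase, was at 0.181, 0 and 0 CPM in LAC, 11.0, 12.5 and 14.1 in KO, 0.212, 0 and 0.0729 in ACT and 61.6, 64.1 and 63.3 in QS. No LAC or ACT library held more than 3 estimated reads of Pck1, so no fold is given against them. Pck1 was highest in QS and next in KO, as was the hepatocyte marker sum, and the part of hepatocytes in it was not tested. Pck2, the mitochondrial form, averaged 19.8 ± 1.95 CPM in LAC, 18.1 ± 0.864 in KO, 46.6 ± 2.15 in ACT and 25.6 ± 5.74 in QS and fell in KO against ACT (-1.31, adjusted p = 9.89e-07). Oxct1, which lets cells use ketone bodies, and Slc25a13, an aspartate-glutamate carrier of the malate-aspartate shuttle, rose in ACT against QS by 1.65 and 1.57. Slc25a12, another such carrier, averaged 12.8 CPM in ACT and 13.7 in QS and was not called there (-0.05). Acss1, a mitochondrial acetyl-CoA synthetase, averaged 1.60 CPM in LAC, 0.225 in KO, 5.38 in ACT and 1.32 in QS and was called in all 4 comparisons, higher in ACT than in QS and in LAC than in KO, and lower in KO and in LAC than in ACT. Its KO libraries were at 0.510, 0.165 and 0 CPM, a few reads at most, so its fold changes depend on the pseudocount and are not given. Glul, glutamine synthetase, averaged 222 ± 7.21 CPM in LAC, 305 ± 6.06 in KO, 241 ± 7.80 in ACT and 591 ± 15.7 in QS and fell in LAC against KO (-0.46, adjusted p = 2.82e-07). Gpt2, the mitochondrial alanine aminotransferase, was lower in LAC than in ACT (-0.92, adjusted p = 1.06e-05).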

How the data were processed

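RNA was extracted from mouse primary hepatic stellate cells and made into libraries with a stranded mRNA kit, per the labels' protocols. The deposited table holds CPM values of 12081 genes in 12 libraries, with group and replicate number taken from the sample titles. These deposited values were treated as a normalised signal, because column totals from 959233 to 1047042 show a further scaling factor per library, and under such scaling changes in the RNA content of a cell stay hidden. The tools kallisto 0.44.0, edgeR 3.8, cutadapt 1.18 and FastQC 0.11.8 and the build mm10 are named, without a role, per the submitters' processing notes. No gene has fewer than 3 libraries at 1 CPM or more, so low genes had been removed by the authors. Because transcript counts were estimated, only 31.4% to 36.5% of low values were within 0.01 of a whole read and no count test was run. A value of 3 reads corresponds to 0.212 to 0.720 CPM. The value of 1 read, read from repeated low values, gave the depths.

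Limma 3.58.1 in R 4.3.3 was fitted to log2(CPM + 1) with 4 group means over all 12 libraries (8 residual degrees of freedom, moderation along the intensity trend). P-values were adjusted by Benjamini-Hochberg over all genes, and the procedure was tested on simulated data. Ratios were taken within a library and tested with two-sided exact permutation tests in scipy 1.17.1. Alternatives were other pseudocounts (0.1 and 5), a filter at a mean of 5, 4 other scalings, the replicate number as a block, fits of 2 groups, moderation without trend, a threshold of 0.01 and leaving out each library. Gene positions and lengths came from GENCODE M21 and promoter windows from RefSeq on GRCm38.p6. Pseudogenes named for a member, Got2-ps1 and Mpc1-ps, are not listed in the table, and reads shared with them would add to Got2 and Mpc1.

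Values of every library are given for the 4 called members with the largest change in each comparison and for 19 members fixed by name, of each neighbouring list up to 3 called genes per comparison are named, and of each marker list the 2 highest genes. Some genes that this rule names are not reported here. The members and lists were chosen with earlier results of these data known. Compared were LAC with ACT, LAC with KO, KO with ACT, and ACT with QS.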

Additional observations from a re-analysis of the deposited data

How the results depend on the processing

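Of 148 member results (37 genes in 4 comparisons), 88 were called and none of these changed direction under any of 11 other settings or without any of 12 libraries. Of the 88, 69 were called in every setting at an adjusted p under 0.05 and 9 lost their call in another setting at that threshold with all libraries kept, while 18 lost it at an adjusted p under 0.01, and 13 of the 60 uncalled gained one in some setting. In LAC against KO the number called went to 10 (7 lower) at an adjusted p under 0.01, against 16 (12 lower). Without a library, members called numbered 12 to 16 in LAC vs KO, 16 to 19 in LAC vs ACT, 18 to 22 in KO vs ACT and 30 to 31 in ACT vs QS. No scaling moved the median log2 fold change of all genes by more than 0.0790. Libraries that share a replicate number showed little shared deviation (18 pairs, r from -0.042 to 0.086, and 7 of the 18 matched their own number best). Spread near counting error could hide a shared source, so whether the numbers pair the samples is not known. With the replicate block 20 members were called in LAC vs ACT, 16 in LAC vs KO, 22 in KO vs ACT and 30 in ACT vs QS, as without it. With 3 libraries a group the ratios could not reach an exact permutation p under 0.10. Counting error weighs on Mpc2, Pdk2, Pdp1 and Pcx, the 4 of the 37 members that lay below 10 CPM in at least 1 library. The coefficient of variation of Pdp1 in QS was 48.2%, the widest of the members there, and its source was not tested.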
